A study of Homo sapiens with 8 samples.

Results

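The 41 genes described here carry out or signal for 3 linked branches of DNA repair: the Fanconi anaemia pathway, homologous recombination and mismatch repair. They were chosen by name, with earlier results of these data known. Every one has a row in the deposited table of read counts, which holds 35394 genes. The cells are HCT116, a human colorectal cancer line that the labels give as epithelial and RAS-mutant. In 4 samples the cells had received Pien Tze Huang (PZH), a compound remedy of traditional Chinese medicine, which the design text gives as lasting 24 h, and in 4 they had received DMSO, the control. The study's title names reactive oxygen species and the growth of colorectal cancer, and no dose of PZH or duration of the DMSO control is given in the sources used here. Replicates carry a number only, so p-values measure the spread between these samples, which may be technical.

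Fanconi proteins recognise a DNA strand pair that has been chemically cross-linked, attach ubiquitin to the FANCD2–FANCI clamp and so open the way for nucleases and recombination. Homologous recombination resects a broken end, loads a recombinase on the single strand with the help of the BRCA proteins, and copies the lost sequence from the sister chromatid, which is why it works mainly in S and G2 phase. Mismatch repair removes bases that the replication polymerases paired wrongly, and in the colon its loss is known for tumours with unstable microsatellites.

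Levels are given as CPM, the reads of a gene relative to library size after TMM scaling, and a gene is called higher or lower where edgeR's quasi-likelihood test gave a Benjamini-Hochberg adjusted p under 0.05 over the 15006 genes tested. Libraries held 19288836 to 19917571 counts in DMSO and 18144117 to 18868057 in PZH, and a gene of this set was covered by 28 to 3326 counts per library. The comparison called a large part of the transcriptome, 40.9% of tested genes lower and 39.3% higher, so the count in each direction is read against those shares. Library totals alone, in place of TMM factors, moved the median log2 fold change of all tested genes by -0.26 and left 36.8% of calls on the higher side in place of 49.0%. Of 10 epithelial markers 9 reached 1 CPM in at least 1 library, VIL1 being the exception, and their summed level was 4107 to 4176 CPM in DMSO and 2617 to 2964 CPM in PZH. Most of that difference was KRT8, at 2036 to 2082 CPM in DMSO and 829 to 971 CPM in PZH. CDH1 (81.6 to 92.4 CPM in DMSO, 218 to 237 in PZH) and CLDN4 (172 to 190 and 203 to 220) were higher in PZH. The others that reached 1 CPM were lower. Fibroblast markers summed to 11.7 to 14.3 CPM in DMSO and 17.5 to 21.4 CPM in PZH, nearly all of it COL1A1, with COL1A2 at 0 in every library and endothelial, immune and erythroid sums under 2.5 CPM. The part of these shifts in the results was not tested.

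The stretches printed here show motif matches in front of the start sites of the 4 genes with the steepest falls and, in a shorter stretch, the CHR match of ATM, which rose. The stretches come from RefSeq windows on GRCh38.p14, printed 5′ to 3′ on the gene's own strand. Capitals mark exact matches, on either strand, to the CCAAT box (CCAAT, or ATTGG when read from the other strand), the CHR element (TTTGAA, or TTCAAA) and the E2F site (TTTGGCGC, TTTCCCGC, TTTCGCGC or TTTGCCGC, or their reverse complements). As background, NF-Y binds CCAAT boxes, the DREAM complex binds CHR elements, and E2F factors bind upstream of many S-phase genes. The BRIP1 stretch lies at chr17:61863548-61863653 on the minus strand, UBE2T at chr1:202341996-202342096 (minus), H2AFX at chr11:119095525-119095635 (minus), FANCA at chr16:89816667-89816827 (minus) and ATM at chr11:108223035-108223064 (plus). The ATM stretch lies within annotated exons of GENCODE v29, and the other 4 stretches hold no exon base of it. ATM also has CCAAT boxes outside the stretch shown, at position -188 of the same RefSeq window and at -56 and 38 of a second window. Also outside the stretches shown, BRIP1 has a CHR match and H2AFX a CCAAT box, each at position -240 of its window.
BRIP1: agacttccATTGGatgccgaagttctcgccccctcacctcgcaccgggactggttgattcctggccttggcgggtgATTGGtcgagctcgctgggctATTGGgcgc
UBE2T: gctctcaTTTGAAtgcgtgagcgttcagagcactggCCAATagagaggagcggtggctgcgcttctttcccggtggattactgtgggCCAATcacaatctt
H2AFX: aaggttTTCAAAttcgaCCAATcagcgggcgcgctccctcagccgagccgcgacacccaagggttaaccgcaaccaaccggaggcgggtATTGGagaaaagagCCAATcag
FANCA: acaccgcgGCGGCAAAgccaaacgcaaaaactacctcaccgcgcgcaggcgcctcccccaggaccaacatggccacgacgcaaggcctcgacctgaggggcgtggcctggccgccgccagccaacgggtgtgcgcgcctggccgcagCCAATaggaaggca
ATM: agtcacgcagggTTTGAAccggaagcggga

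Most of the 41 genes fell after PZH. All 41 passed the filter on low counts, 37 were called lower, ATM and MSH3 were called higher, and MRE11 and RAD50 were not called. So 39 of 41 were called either way, where 80.3% of tested genes were. Against a background of 40.9% of tested genes called lower, the members' share was 90.2%. Since the members were chosen with earlier results known, this contrast is a description and not an independent test. Of the 37, 28 fell by at least 2-fold (18.9% of tested genes did) and 8 by at least 4-fold (6.07% of tested genes). Those 8 were BRIP1, FANCA, H2AFX, UBE2T, RAD54L, EXO1, XRCC2 and DNA2. The median log2 fold change was -1.30, beside -0.02 over all tested genes, and single genes spread from -2.96 to 0.98. In all 37 that fell, the 4 PZH libraries lay below the 4 DMSO libraries, which held for 38.4% of tested genes. Counting ATM and MSH3, which lay wholly above, the groups did not overlap in 39 of 41 genes (75.0% of tested genes). Together the 41 genes took 0.196% to 0.199% of a DMSO library and 0.0718% to 0.0836% of a PZH library. In RNA from whole cultures, fewer cells that express a gene and less RNA per cell cannot be told apart.

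**Figure D1:**
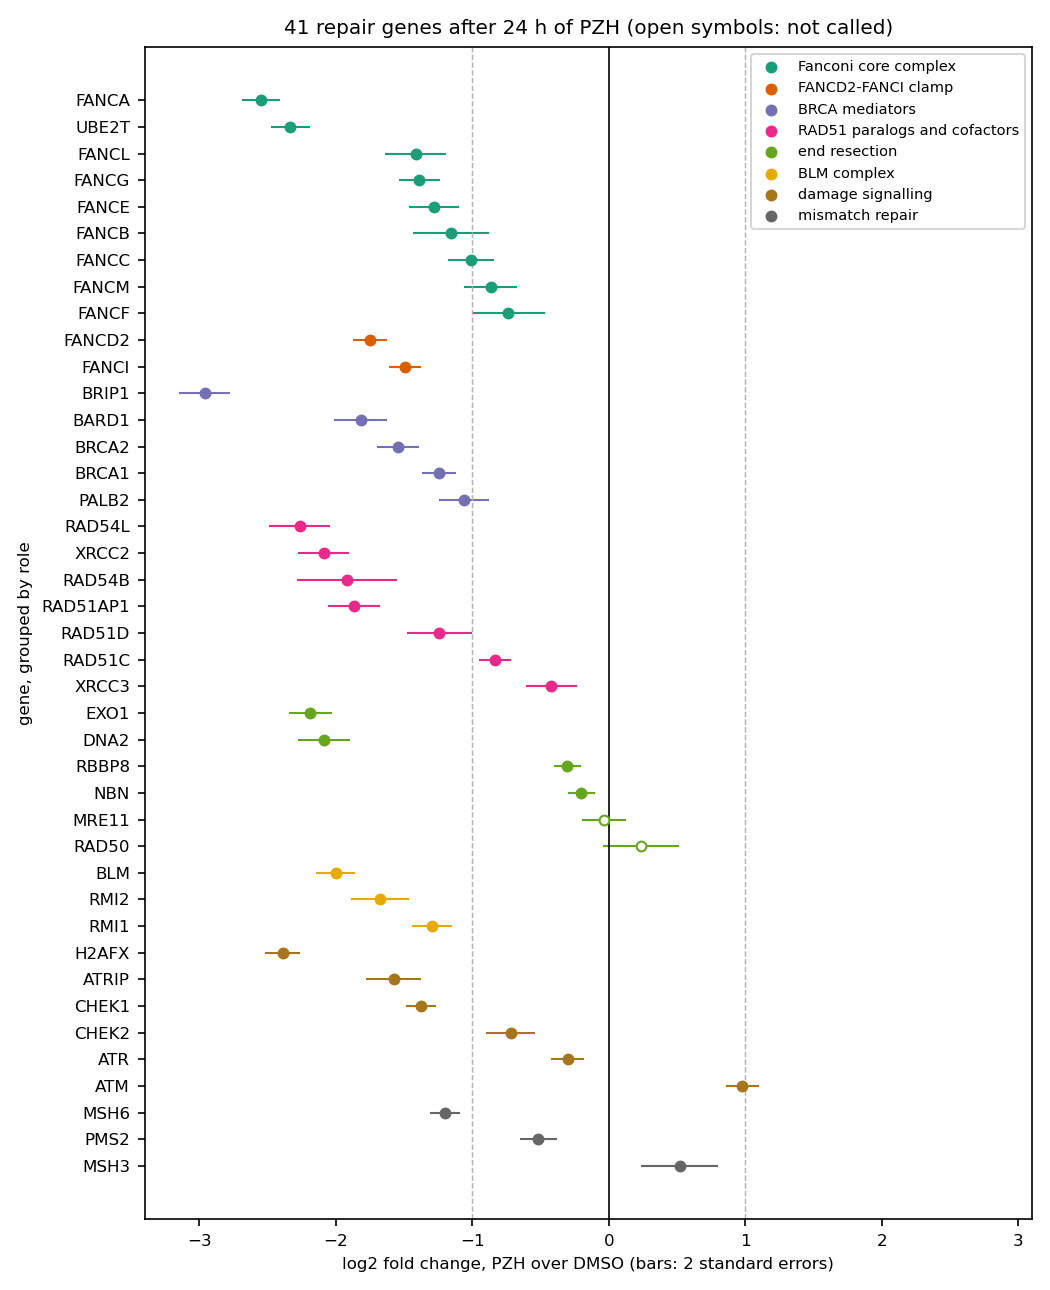
Log2 fold change of PZH over DMSO (x axis) for each of the 41 genes (y axis), coloured by role, with bars of 2 standard errors and open symbols for genes not called; n = 4 libraries per group. All points but ATM, MSH3 and RAD50 lie left of 0, and dashed lines mark a 2-fold change each way.

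The Fanconi core complex is the ubiquitin ligase of the pathway, with FANCL as its catalytic subunit and UBE2T as the enzyme that hands it ubiquitin. All 9 genes grouped under it here, UBE2T included, fell, with a median log2 fold change of -1.28. Of further subunits that are not among the 41 genes, FAAP100 fell 1.10-fold, FAAP20 1.24-fold and FAAP24 3.06-fold. FANCA, a scaffold subunit, stood at 71.6, 66.5, 64.4 and 69.3 CPM in the DMSO libraries and at 12.5, 11.8, 10.1 and 12.1 CPM in PZH. Every PZH library was far under the lowest DMSO library, and the fall was 5.85-fold (log2 fold change -2.55 ± 0.070 SE, edgeR adjusted p = 3.25e-19). FANCF, the adaptor subunit with the smallest fall of the 9 genes, gave 9.18, 8.14, 8.29 and 10.1 CPM in DMSO and 6.51, 5.26, 4.89 and 4.73 CPM in PZH, again without overlap (1.66-fold lower, edgeR adjusted p = 2.7e-05). UBE2T went from 64.1 ± 1.66 to 12.7 ± 1.40 CPM (mean ± SD, n = 4), a 5.04-fold fall. FANCL, its ligase partner, fell 2.67-fold, and the translocase FANCM 1.82-fold. FANCB, FANCC, FANCE and FANCG lay between 2.01-fold and 2.61-fold lower. FANCA shares 23.6% of its annotated exon length with ZNF276 on the opposite strand, and whether strand was used in counting is not given, so its count is uncertain to that extent.

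FANCD2 and FANCI form the clamp that the core complex ubiquitinates and that then encloses DNA. FANCD2 was at 76.6, 82.1, 76.6 and 76.4 CPM in DMSO and 25.6, 22.8, 20.7 and 23.7 CPM in PZH. FANCI was at 144, 141, 145 and 151 CPM in DMSO and 59.0, 51.9, 48.0 and 47.6 CPM in PZH. Both fell without overlap, FANCD2 by 3.36-fold and FANCI by 2.81-fold. FANCD2 has near-identical pseudogene copies, and reads shared with them could be counted either way.

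The BRCA group brings the recombinase to resected ends: BRCA1 and BARD1 form a ubiquitin ligase, PALB2 bridges BRCA1 to BRCA2, and BRIP1 is a helicase that binds BRCA1. All 5 fell by at least 2-fold, with a median log2 fold change of -1.55. BRIP1 had the steepest fall of the 41 genes. Its levels were 47.7, 47.0, 52.5 and 52.0 CPM in DMSO and 7.19, 6.97, 6.65 and 4.73 CPM in PZH, a 7.78-fold fall (log2 fold change -2.96 ± 0.094 SE, edgeR adjusted p = 4.11e-18), and 1.71% of tested genes had a lower log2 fold change. The promoter stretch printed above for BRIP1 holds 3 CCAAT boxes in reverse orientation. PALB2 had the smallest fall of the group, from 22.6, 23.5, 25 and 22.6 CPM in DMSO to 11.6, 11.0, 9.49 and 12.8 CPM in PZH (2.08-fold). BRCA1 went from 73.0 ± 2.0 to 30.8 ± 3.04 CPM, BARD1 fell 3.52-fold and BRCA2 2.92-fold.

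The next 7 genes are paralogs of the recombinase and the proteins that stimulate it. RAD51C, RAD51D, XRCC2 and XRCC3 help it form filaments, RAD51AP1 helps pair the strands, and RAD54L and RAD54B are motor proteins that drive strand invasion. All 7 fell, with a median log2 fold change of -1.86. RAD54L moved from 24.6, 23.9, 24.1 and 23.3 CPM in DMSO to 4.64, 6.38, 3.81 and 5.09 CPM in PZH (4.81-fold lower, log2 fold change -2.27 ± 0.113 SE). XRCC3 had the smallest fall, from 17.6, 16.2, 15.3 and 17.1 CPM to 13.3, 10.7, 12 and 13.4 CPM, with the groups apart by little (1.34-fold lower, edgeR adjusted p = 3.35e-04). The count of XRCC3 is uncertain, since 76.7% of its annotated exon length lies across from KLC1. XRCC2 fell 4.26-fold, RAD54B 3.78-fold, RAD51AP1 3.64-fold, RAD51D 2.37-fold and RAD51C 1.78-fold. RAD54B shares 59.1% of its exon length with FSBP on the same strand, and RAD54L 25.1% with LRRC41 on the opposite strand.

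End resection was uneven. MRE11, RAD50 and NBN make up the complex that detects the break and, with RBBP8 (CtIP), makes the first cut, while EXO1 and DNA2 are the nucleases that then chew back long stretches. The long-range nucleases fell by over 4-fold. EXO1 went from 48.8, 43.2, 47.9 and 49.3 CPM in DMSO to 11.8, 10.4, 8.94 and 10.4 CPM in PZH (4.55-fold lower, log2 fold change -2.18 ± 0.080 SE, edgeR adjusted p = 6.01e-17). DNA2 fell 4.25-fold.

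The genes of the first cut moved little or were not called. NBN was at 85.3, 81.4, 76.9 and 81.2 CPM in DMSO and 74.1, 68.2, 69.7 and 70.7 CPM in PZH, a fall of 1.15-fold (edgeR adjusted p = 7.65e-04), and RBBP8 fell 1.23-fold. MRE11, the nuclease, read 17.8, 18.0, 19.8 and 16.4 CPM in DMSO and 17.6, 17.7, 17.5 and 17.6 CPM in PZH. The PZH values of MRE11 fall inside the DMSO range (log2 fold change -0.03 ± 0.081 SE, edgeR adjusted p = 0.710). With library totals in place of TMM factors MRE11 was called lower, at -0.29 (edgeR adjusted p = 0.00342), and with a GC trend removed from each library at -0.18 (edgeR adjusted p = 0.0456). RAD50, the ATPase, read 5.02, 5.44, 4.56 and 5.11 CPM in DMSO and 5.21, 5.67, 6.89 and 6.0 CPM in PZH, with the lowest PZH library inside the DMSO range (log2 fold change 0.24 ± 0.139 SE, edgeR adjusted p = 0.121). Without PZH replicate 1, RAD50 was called higher at 0.32 (edgeR adjusted p = 0.0495), and with library totals its value was -0.02. RAD50 shares 79.7% of its exon length with AC116366.3 on the same strand, which itself had at most 2 counts in a library. Whether reads in shared exons were dropped is not given, so the count of RAD50 and its ratios to partners are uncertain. In DMSO it stood at 0.515 CPM per kilobase of annotated exon, beside 2.34 for MRE11 and 13.2 for NBN.

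BLM, RMI1 and RMI2 belong to the complex that dissolves the double Holliday junctions left by strand exchange, BLM being its helicase. All 3 fell. BLM went from 46.9, 48.2, 45.0 and 44.2 CPM in DMSO to 11.8, 11.8, 10.3 and 12.2 CPM in PZH (4.0-fold lower, log2 fold change -2.0 ± 0.072 SE). RMI1 had the smallest fall of the complex, from 52.5, 49.9, 45.8 and 48.5 CPM to 23.3, 19.0, 18.5 and 19.1 CPM (2.46-fold), and RMI2 fell 3.20-fold.

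Among the genes of damage signalling, 5 fell and ATM rose. H2AFX encodes the histone variant that is phosphorylated around breaks, and it had the highest DMSO level of the set per length, 94.3 CPM per kilobase of annotated exon. Its levels were 142, 156, 155 and 156 CPM in DMSO and 28.6, 24.9, 33.5 and 29.3 CPM in PZH (5.24-fold lower, log2 fold change -2.39 ± 0.065 SE, edgeR adjusted p = 2.99e-19). ATR, the kinase of stalled forks, had the smallest fall of the group, from 47.6, 49.5, 45.8 and 49.9 CPM to 42.4, 40.0, 36.2 and 37.8 CPM, with the groups apart (1.23-fold lower, edgeR adjusted p = 8.85e-05). Its binding partner ATRIP fell 2.98-fold. The checkpoint kinase CHEK1 fell 2.60-fold and CHEK2 1.65-fold. ATRIP shares 27.9% of its exon length with TREX1 on the same strand. TREX1 has no row of its own among the counts, so its reads could be counted as ATRIP. The fall of ATRIP and its ratio to ATR are uncertain to that extent. CHEK2 has near-identical pseudogene copies.

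ATM, the kinase that answers double-strand breaks, moved the other way. It read 49.5, 47.7, 45.6 and 52.4 CPM in DMSO and 107, 87.7, 90.1 and 100 CPM in PZH. Each PZH library exceeded each DMSO library, and the mean went from 48.8 ± 2.90 to 96.2 ± 8.96 CPM, 1.97-fold higher (log2 fold change 0.98 ± 0.062 SE, edgeR adjusted p = 1.32e-12), against a background of 39.3% of tested genes called higher. Other genes cover 0.597% or less of its exon length each.

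Of the mismatch repair genes, MSH6 and PMS2 fell and MSH3 rose. MSH6 is the subunit that recognises base mismatches and MSH3 the alternative subunit for longer loops, while PMS2 belongs to the endonuclease that acts next. MSH6 went from 113, 117, 116 and 117 CPM in DMSO to 48.7, 53.2, 44.8 and 54.5 CPM in PZH (2.30-fold lower). PMS2 went from 31.5, 31.6, 30.3 and 30.1 CPM to 21.2, 23.7, 19.9 and 21.6 CPM (1.43-fold lower), and it has near-identical pseudogene copies. MSH3 read 4.25, 5.16, 4.0 and 4.16 CPM in DMSO and 6.34, 5.61, 6.46 and 6.78 CPM in PZH, all 4 PZH libraries above the DMSO libraries (1.43-fold higher, log2 fold change 0.52 ± 0.141 SE, edgeR adjusted p = 0.00191). With library totals in place of TMM factors the rise of MSH3 was 0.26 and was not called (edgeR adjusted p = 0.0979). It is among the least abundant of the set, at 0.933 CPM per kilobase of exon in DMSO.

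**Figure D2:**
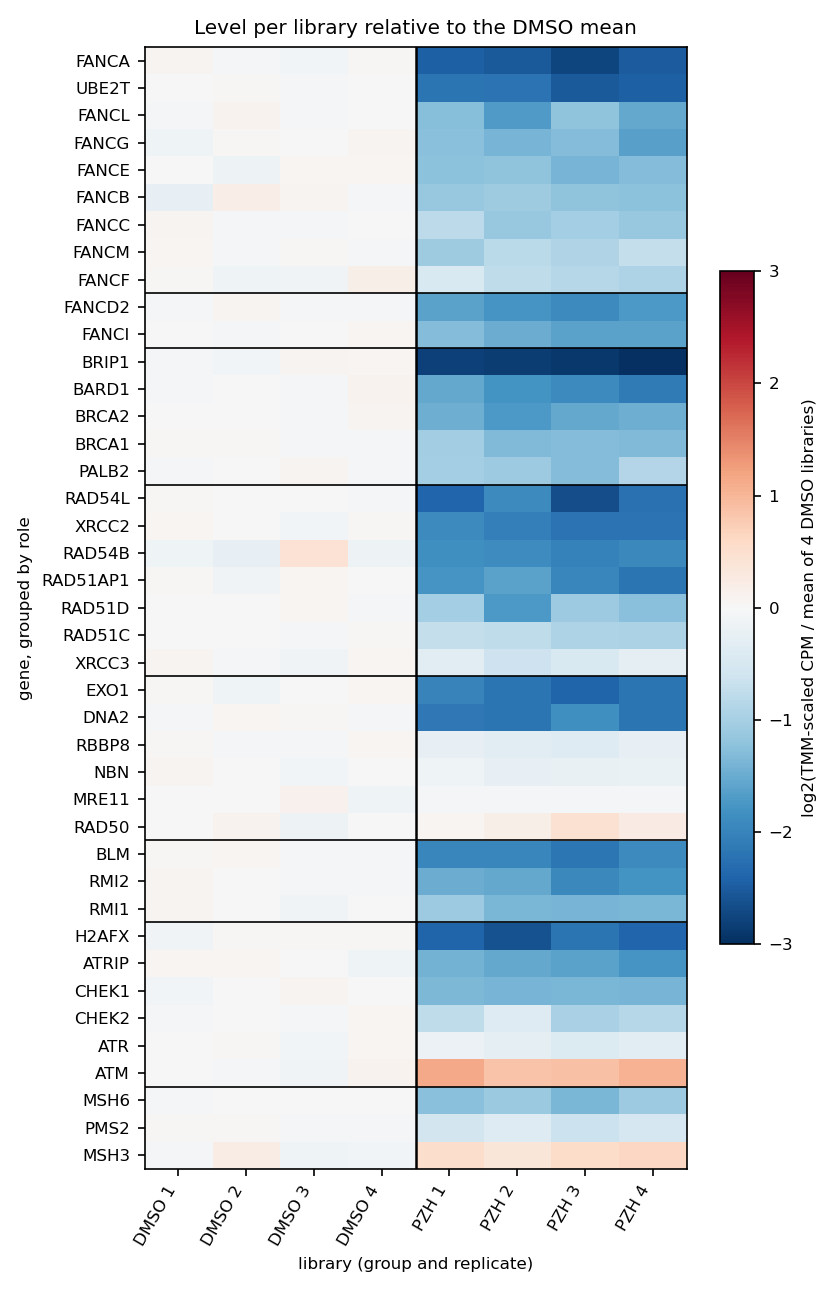
Level of each of the 41 genes (y axis, grouped by role) in each of the 8 libraries (x axis), as the log2 ratio of its scaled CPM to the mean of the 4 DMSO libraries, blue for lower and red for higher. The DMSO columns are near white and the PZH columns blue in nearly every row, with ATM and MSH3 red and MRE11 near white.

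Libraries of a group lay close together. The coefficient of variation of a gene had a median of 4.33% in DMSO and 10.3% in PZH. PZH replicate 1 held the highest PZH value in 22 of 41 genes, where it did so in 27.0% of all tested genes, and PZH replicate 3 held the lowest in 18 of 41, against 22.7% of tested genes. Leaving out any library kept all 37 falls called.

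Most of the partners compared, in a complex or reaction step, did not change by the same amount. The log2 ratio of 2 partners' counts within a library does not depend on the scaling of libraries, and 21 pairs chosen by complex or reaction step were compared by an exact two-sided permutation test over 70 assignments of the libraries, where the smallest p is 0.0286. In 16 pairs the ratio differed with an adjusted exact p of 0.0375, 12 with a lower and 4 with a higher ratio in PZH. These are the pairs in which the groups did not overlap. Among single tested genes 75.0% did not overlap either, and the share for gene pairs in general was not computed. The count is therefore not read as particular to partners. The ratio of MSH6 to MSH3, the alternative mismatch subunits, moved by -1.73 ± 0.122 on the log2 scale (difference ± SE), or 3.32-fold. BRCA1 over its helicase partner BRIP1 rose by 1.73 ± 0.139 (3.31-fold). CHEK2 over ATM, the kinase that activates it, moved by -1.71 ± 0.166 (3.28-fold). ATR over ATRIP rose by 1.275 ± 0.079 (2.42-fold), and CHEK1 over ATR moved by -1.07 ± 0.068 (2.102-fold). FANCA over FANCG, which bind each other directly, moved by -1.16 ± 0.139 (2.23-fold).

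Other partners stayed closer. FANCD2 over FANCI differed by -0.25 ± 0.065, a small shift that still separated the groups. EXO1 over DNA2 differed by -0.10 ± 0.171 (adjusted exact permutation p = 0.714). The other 4 pairs that missed the threshold were FANCE:FANCC, RAD54L:RAD54B, MRE11:RAD50 and FANCB:FANCL, with adjusted exact permutation p from 0.0706 to 0.120, which does not show that their ratios were equal.

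**Figure D3:**
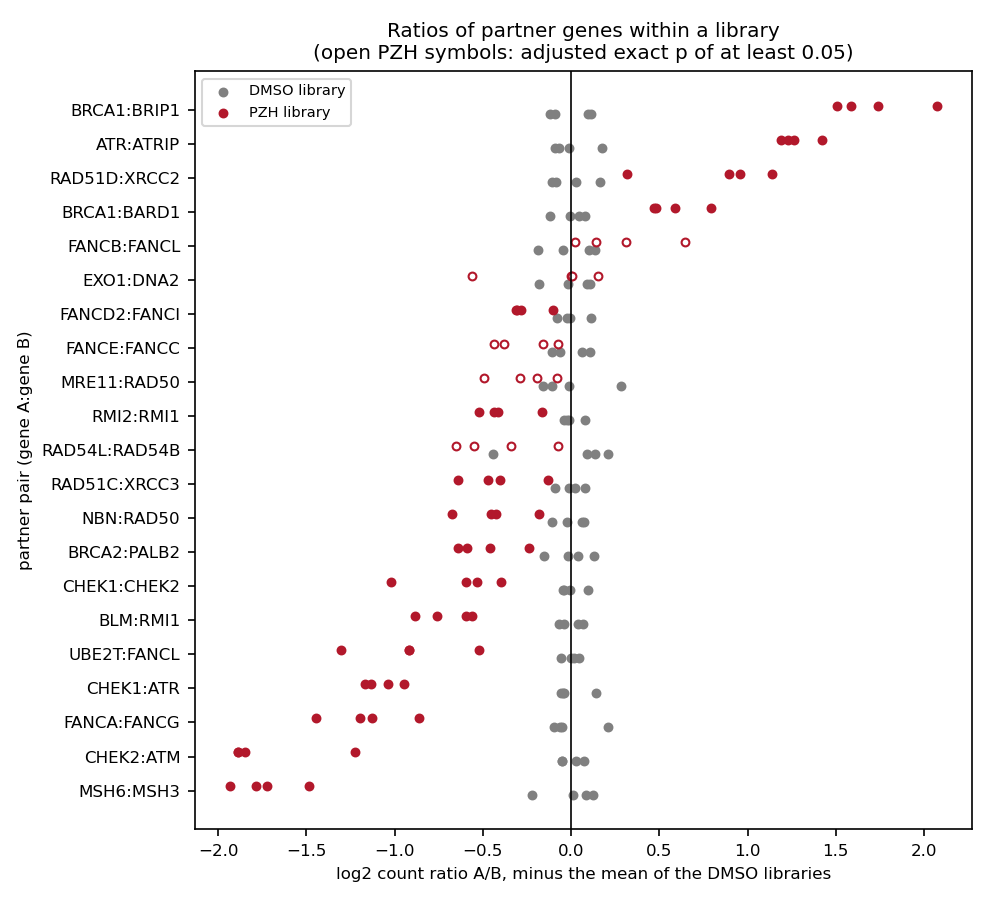
Log2 count ratio of 21 partner pairs (y axis) in each library, set to 0 at the mean of the DMSO libraries (x axis), grey for DMSO and red for PZH, with open symbols where the adjusted exact p was at least 0.05. MSH6:MSH3 and CHEK2:ATM lie farthest left and BRCA1:BRIP1 and ATR:ATRIP farthest right.

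ATM shares a feature of position with several genes that fell: it starts beside a gene on the opposite strand. In GENCODE v29, 22 neighbours of members other than MSH3, which was not analysed here in this respect, start head-to-head with the member. The outermost annotated starts of both genes lie within 1000 bases of each other, and neighbours of inner starts were not sought. Of these pairs 13, with 13 members, had both genes tested. ATM lies beside NPAT, a regulator of histone genes. NPAT fell from 36.1, 38.3, 35.3 and 32.2 CPM in DMSO to 18.7, 20.4, 20.4 and 22.1 CPM in PZH (log2 fold change -0.80, edgeR adjusted p = 8.45e-10) while ATM rose.

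In 6 further pairs the repair gene fell and the neighbour rose. BRCA1 fell beside the autophagy receptor NBR1, which rose from 116 ± 3.63 to 391 ± 19.6 CPM (3.37-fold). The pair is formed by the most distal annotated start of BRCA1. Which start of BRCA1 these cells use was not examined, so the pair may not share a promoter region in use. FANCB fell beside MOSPD2, which rose from 14.1 ± 0.881 to 41.3 ± 1.15 CPM (2.94-fold), and FANCD2 beside the pseudogene CIDECP (4.73-fold higher). PALB2, RAD51AP1 and CHEK2 fell beside DCTN5 (1.45-fold higher), C12orf4 (1.76-fold higher) and HSCB (1.22-fold higher, edgeR adjusted p = 0.0345). HSCB overlaps 6.70% of the exon length of CHEK2, and its DMSO and PZH libraries overlap. It was not called with upper quartile factors, library totals, no filter or a GC trend removed, nor without DMSO replicate 1 or 3 or PZH replicate 1 or 2 (edgeR adjusted p 0.0606 to 0.131 for these 4). At the stricter threshold of 0.01 HSCB was not called either.

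So 9 pairs had both genes called, and 7 of the 9 (77.8%) moved in opposite directions. The 7 include CHEK2 with HSCB, without which 6 pairs remain. FANCM with FKBP3 and XRCC3 with ZFYVE21 both fell. Over the whole table, 943 head-to-head pairs had both genes called and 38.6% of them moved in opposite directions. With library totals in place of TMM factors 6 of 10 member pairs did so, against 34.8%. The comparison was chosen after the values of ATM had been seen, and no test of it was made.

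**Figure D4:**
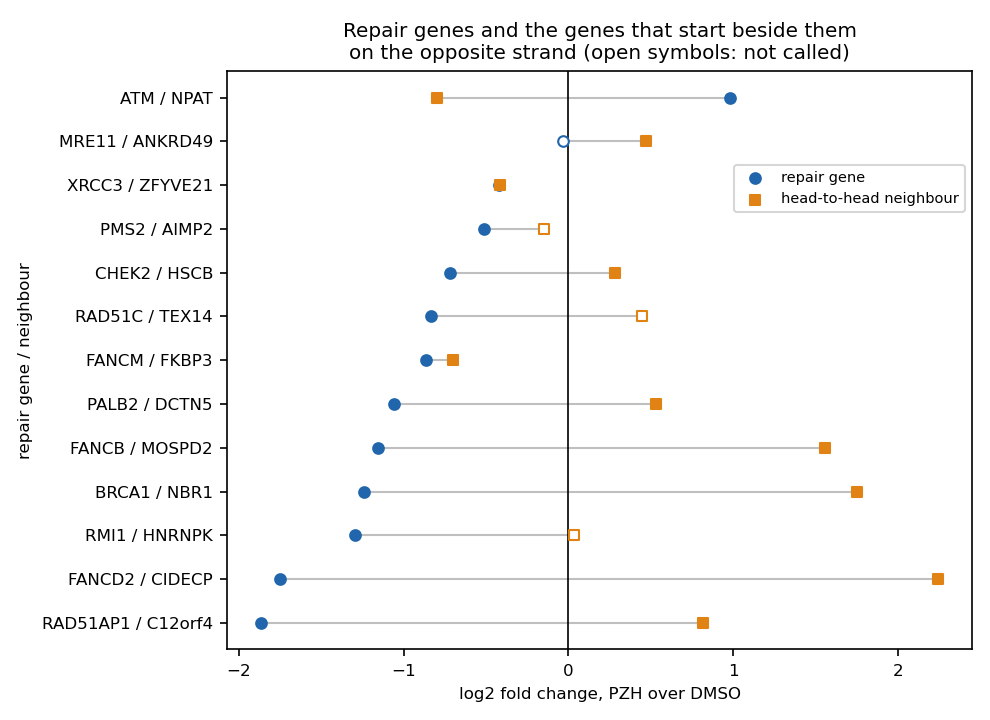
Log2 fold change of PZH over DMSO (x axis) for 13 repair genes (blue circles) and the neighbour that starts beside each on the opposite strand (orange squares), joined by a line, with open symbols for genes not called. In 7 pairs the line crosses 0 with both genes called, the longest being that of FANCD2 and CIDECP.

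Promoter windows of 300 bases, from 250 before to 50 after the start, were found in RefSeq for 36 of the 41 genes. An E2F match was present in 9 of the 36 (25%), beside 6.59% of the 10320 tested genes with a window and 3.99% of all 27305 genes with 1. The 9 were EXO1, FANCA, FANCC, FANCD2, MSH3, MSH6, PMS2, RMI1 and XRCC2, of which 8 fell and MSH3 rose. A CCAAT box was present in 20 (55.6%, beside 43.2% of tested and 39.7% of all genes). A CHR element was present in 5 (13.9%, beside 13.4% and 18.2%), namely UBE2T, H2AFX, BRIP1, FANCC and ATM.

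Genes with and without a match had similar medians for the E2F site and the CCAAT box. The median log2 fold change was -1.30 with and -1.24 without an E2F match, and -1.27 with and -1.26 without a CCAAT box. For the CHR element it was -2.33 with and -1.24 without, a split that rests on 5 genes and includes ATM, which rose. These are descriptions of letters in a window and carry no test.

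Other repair genes fell less uniformly. Of 47 tested genes from the wider Fanconi, recombination and mismatch machinery, 26 were lower (55.3%, beside 40.9% of all tested genes) and 14 higher (29.8%, beside 39.3%), with a median log2 fold change of -0.37. The single-strand binding subunit RPA1 fell from 298 ± 5.55 to 103 ± 4.35 CPM (2.90-fold), and the helicase RECQL4 and the junction resolvase GEN1 each fell 4.01-fold. In the other direction, the recombination ATPase FIGNL1 rose from 42.1 ± 1.41 to 115 ± 2.32 CPM (2.72-fold), SWI5 2.55-fold and UIMC1, a subunit of the BRCA1-A complex, 2.43-fold. Among 16 checkpoint partners 12 fell (75%) and 2 rose (12.5%). CLSPN, the adaptor through which ATR activates CHEK1, fell 5.84-fold, the phosphatase CDC25A 3.87-fold and the fork protein TIMELESS 2.91-fold, while HUS1 of the checkpoint clamp rose 1.93-fold and its loader RAD17 1.19-fold. RAD17 was not called with library totals (log2 fold change -0.01) or a GC trend removed (0.10), and HUS1 was called higher with both.

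Genes of end joining and of the excision pathways went both ways, as tested genes did in general (40.9% lower, 39.3% higher). Of 18 tested end-joining genes 7 fell and 7 rose, 38.9% each way and close to those shares: PARP1 (3.02-fold), POLQ (3.32-fold) and PRKDC (2.76-fold) were lower, and the ligases LIG4 (3.16-fold) and LIG3 (1.76-fold) and the polymerase POLL (1.57-fold) higher. Of 21 nucleotide excision genes 5 fell (23.8%) and 11 rose (52.4%), with the damage sensor DDB2 2.03-fold lower and the TFIIH kinase CDK7 2.52-fold and ERCC6 2.63-fold higher. With library totals that split was 9 lower and 7 higher. Of 19 base excision genes 10 fell (52.6%) and 7 rose (36.8%), with the replication ligase LIG1 9.82-fold, the flap nuclease FEN1 7.75-fold and the uracil glycosylase UNG 6.79-fold lower, and the repair polymerase POLB 1.83-fold higher. Whether these lists differ from the 41 genes was not tested.

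**Figure D5:**
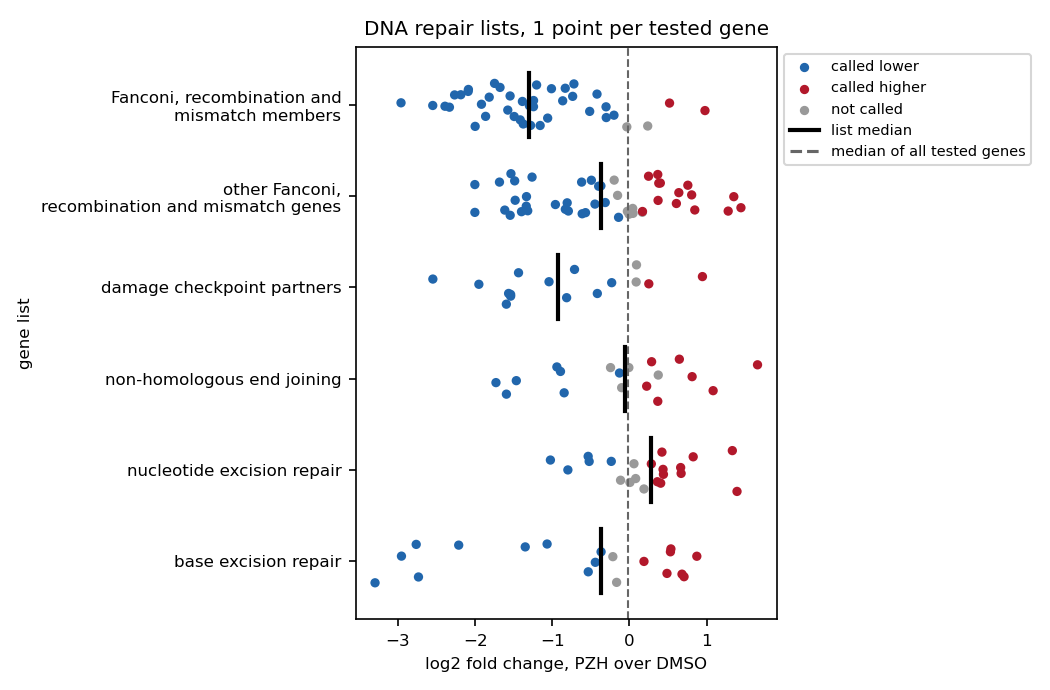
Log2 fold change of PZH over DMSO (x axis) of each tested gene in 6 repair lists (y axis), blue for called lower, red for called higher and grey for not called, with black bars at list medians and a dashed line at the median of all tested genes. The 41 genes have a median of -1.30, and nucleotide excision repair is the list with a median above 0.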

How the data were processed

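Poly(A) RNA of 8 HCT116 samples, 4 PZH and 4 DMSO, was sequenced from Trizol extracts with a NEBNext Ultra kit, per the labels' protocols. The authors deposited raw counts, whole numbers without normalization, as a single table of genes by libraries, and 0 columns were without a sample. The submitters' processing notes list HISAT2 2.1.0, FastQC 0.11.5, DESeq 1.28.0 and StringTie 1.3.3b, with no role stated. Build, annotation and strand setting were not given in the sources used here. Gene names that a spreadsheet had turned into dates (25 names, 0.178% to 0.220% of counts) stayed in library sizes and tests. Genes were matched by symbol.

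Replicates differed by more than counting noise in every pair (chi-square per degree of freedom 2.39 to 12.3), so none was merged. Genes were filtered with filterByExpr (minimum count 10, minimum total 15), scaled with TMM and tested two-sided with edgeR's quasi-likelihood F test (edgeR 4.0.16, R 4.3.3), with group as the only term and Benjamini-Hochberg adjustment over 15006 genes at 0.05. Marker sums use CPM without TMM factors. The SE of a log2 fold change is its size over the square root of F. Partner ratios used a pseudocount of 0.5 and p adjusted over 21 pairs. The pipeline was tested on simulated data. Exon lengths, overlaps and neighbours come from GENCODE v29 by symbol, whose build may differ from the authors'. Promoters come from RefSeq on GRCh38.p14.

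Results were recomputed with RLE or upper quartile factors or library totals alone, without a filter, with genes at 1 CPM or more in 4 libraries, and with DESeq2 1.42.0, limma-voom (limma 3.58.1), robust empirical Bayes, an adjusted p of 0.01, the replicate number as a block, leaving out each library, a pseudocount of 5 for ratios and, chosen after seeing the data, a GC trend removed. Members, role groups, pairs, companion lists and motifs were chosen with earlier results of these data known. Genes given with every library's value are those with the largest and smallest fall of each role group, each called higher and each not called. Companions named are up to 3 per direction with the smallest p. FAAP20, FAAP24, FAAP100 and TOP3A were added as subunits of complexes described. SHLD3 was not analysed here, and 1 neighbouring gene is not reported here.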

Additional observations from a re-analysis of the deposited data

Results flagged for a closer look

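In 7 of the 82 groups of 4 libraries (41 genes, 2 treatments) the highest or lowest library stood apart from the other 3 by Dixon's test, and chance marks about 1 in 20 groups. FANCD2 was high in DMSO replicate 2, at 82.1 CPM against 76.4 to 76.6 in the others. RAD54B was high in DMSO replicate 3, at 9.31 CPM against 5.87 to 6.35, and RMI2 in DMSO replicate 1, at 19.1 CPM against 17.8 to 17.9. H2AFX was low in DMSO replicate 1, at 142 CPM against 154.9 to 156. Among PZH libraries, replicate 1 was high for BRCA1, at 35.4 CPM against 29.2 to 29.4, and for RMI1, at 23.3 CPM against 18.5 to 19.1. DNA2 was high in PZH replicate 3, at 7.43 CPM against 5.82 to 6.0. All 7 genes stayed called lower when any of the 8 libraries was left out.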

How the results depend on the processing

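The 37 falls were shared by all 19 alternative settings. The count called lower was 38 with library totals in place of TMM factors and with the GC trend removed, MRE11 being added. With library totals, 1 member was called higher, and the higher calls of the companion lists were 1 (checkpoint partners), 4 (end joining) and 7 (nucleotide excision), with 9 nucleotide excision genes lower. With the GC trend removed, 1 checkpoint partner was higher. The members' median log2 fold change was -1.37 with upper quartile factors, -1.55 with library totals and -1.39 with the GC trend removed. Leaving out each library gave 37 to 37 members lower, 2 to 3 higher and medians of -1.36 to -1.27, with 6026 to 6217 of all genes lower and 5835 to 5991 higher. Of 41 members, 38 kept their call and direction in every setting, MRE11, RAD50 and MSH3 being the exceptions. No partner ratio that had differed changed direction. EXO1 over DNA2, which had not, was 0.05 without PZH replicate 3. Leaving out a library allows no test of a ratio, since 35 assignments give a smallest p of 0.0571. With the replicate number as a block, 37 members were lower and 2 higher. Deviations of same-numbered libraries had correlations of 0.0007 to 0.0113, so no shared deviation was seen. Whether the numbers pair the samples is not given. Depth limits precision most for RAD54B, with 28 counts in its thinnest library and the largest SE of the 41 genes, 0.184.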
